A study of Danio rerio with 6 samples.

Results

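The genes described here mark heart muscle or regulate its formation, and were taken from the deposited count table by symbol. The list held 9 symbols, vmhc, myl7, myh6, nppa, nppb, tnnt2a, gata4, nkx2.5 and tbx5a. Of these, 8 had a row among the 14612 genes of the table, and all 8 passed the filter on low counts that left 13336 genes. No row carried nppb as a symbol, an alias or by its NCBI gene number, so it was not analysed here. The animals were intact zebrafish (Danio rerio), called embryos in the labels and collected 7 days after fertilization, and RNA of 33 to 35 of them was pooled for each library. The nucleotide group was 3 pools kept in embryo medium with dissolved nucleotides at 10 µM, and the control group was 3 pools in the same medium at 0 µM. The labels name neither the nucleotides, the strain, the sex of the animals nor the length of the exposure. The headers of the exposed columns in the deposited table name carbon monoxide in place of nucleotides, while the library names in them match the nucleotide labels, so the identity of the agent rests on the labels. The nucleotide libraries held 25792829 to 31556366 counts and the control libraries 18690465 to 23066970.

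The zebrafish heart has an atrium and a ventricle, and contraction is carried by sarcomeres in which myosin filaments pull on actin filaments under the control of the troponin complex. Some sarcomere proteins are made in both chambers, whereas the myosin heavy chains differ between them. The transcription factors Gata4, Nkx2.5 and Tbx5a act in the early heart field and remain expressed in heart muscle cells, and natriuretic peptides are hormones released by heart muscle under load. The lowest count of a described gene in any library was 68 (tbx5a) and the highest 3788 (vmhc). Counting alone gave a relative error of 12.1% and 1.62% at those counts. Levels below are CPM, counts divided by the library total after TMM scaling (a trimmed mean of log ratios between libraries) and rescaled to a common total.

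The ventricular myosin heavy chain gene was called higher in the nucleotide pools, just under the threshold. That call was lost with any single library left out and under some other scalings. The genes for the heart's regulatory light chain and troponin T lay higher by a similar size. They passed the test only when pools were paired by number. The atrial myosin heavy chain gene and the natriuretic peptide gene nppa had values close to 0 and did not pass. The 3 transcription factor genes did not pass in either direction. In edgeR's quasi-likelihood test, 1 of the 8 genes was called higher and 0 lower (adjusted p under 0.05), where 0.937% of all tested genes were called higher and 0.0525% lower. At an unadjusted p under 0.05, 3 of the 8 were higher and 0 lower, against 8.3% and 6.19% of all tested genes. DESeq2 also called 1 higher and 0 lower, where it called 3.05% of genes higher and 0.736% lower. When the replicate number entered the model as a block, 3 of the 8 were called higher and 0 lower, where 10.7% of all tested genes were called higher and 8.38% lower. The median log2 fold change of the 8 genes was 0.18, against -0.014 over all tested genes. In whole embryos, a change in the number of heart muscle cells and a change in the RNA per cell cannot be told apart.

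**Figure D1:**
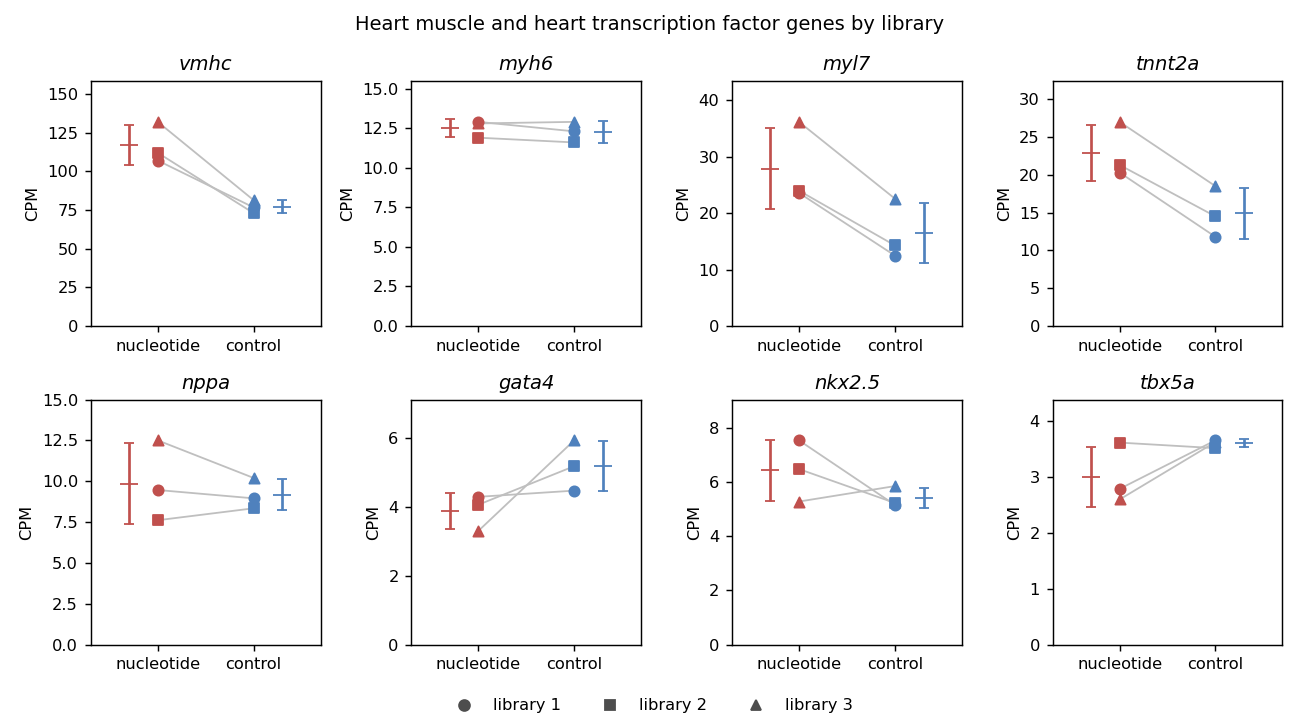
Normalised level (CPM, linear axis from 0) of each of the 8 heart genes in the 3 nucleotide and 3 control libraries. Marker shapes give the library number, grey lines join same-numbered libraries, and the bars beside the points are the mean and SD of each group. For vmhc, myl7 and tnnt2a every nucleotide library lies above every control library, and for gata4 every nucleotide library lies below.

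vmhc (NCBI gene 30616) encodes the myosin heavy chain of the ventricle. It stood at 107, 112 and 132 CPM in nucleotide libraries 1, 2 and 3, against 76.7, 73.0 and 81.4 CPM in control libraries 1, 2 and 3. The groups did not overlap, as was so for 11.5% of all tested genes in this direction, library 3 was the highest in each, and the gap between the groups was wider than the spread within either. The means were 117 ± 12.9 CPM in nucleotide pools and 77.0 ± 4.22 CPM in control pools (SD, n = 3 each), which is 1.52-fold, or 0.60 ± 0.106 (SE) on the log2 scale. The 95% interval of the log2 fold change ran from 0.36 to 0.85, and the edgeR adjusted p was 0.0477. The adjusted p lay just under the threshold and the call was lost with any single library left out, at log2 fold changes of 0.51 to 0.67. These adjusted p values were 0.229, 0.182 and 0.113 without control library 1, 2 or 3, and 0.0783, 0.126 and 0.112 without nucleotide library 1, 2 or 3. Under upper-quartile scaling the adjusted p was 0.0521 and under library totals 0.0881. With the replicate block the change was 0.60 ± 0.0653 (SE, edgeR adjusted p = 0.000109), and DESeq2 without the block gave 0.61 (adjusted p = 0.000214).

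myl7 (30592) encodes the regulatory myosin light chain found in both chambers of the zebrafish heart. Its levels were 23.6, 24.0 and 36.2 CPM in the nucleotide libraries, against 12.5, 14.3 and 22.6 CPM in the control libraries. The groups did not overlap, but control library 3 stood just under nucleotide libraries 1 and 2. The spread inside the groups was wide, the highest control library being 1.80 times the lowest and the highest nucleotide library 1.53 times the lowest. Means were 27.9 ± 7.16 CPM in nucleotide pools and 16.5 ± 5.38 CPM in control pools (SD, n = 3 each), a log2 fold change of 0.76 ± 0.253 (SE) with a 95% interval of 0.17 to 1.34. It did not pass without the block (edgeR adjusted p = 0.227) nor in DESeq2 (adjusted p = 0.0726). With the replicate block it rose by 0.77 ± 0.0869 on the log2 scale (SE, edgeR adjusted p = 0.000136).

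tnnt2a (58071) encodes cardiac troponin T, which ties the troponin complex to tropomyosin, and the silent heart mutation of zebrafish lies in it. It was at 20.3, 21.3 and 27.0 CPM in the nucleotide libraries, against 11.8, 14.5 and 18.5 CPM in the control libraries. As for myl7, library 3 was highest in each group and the groups did not overlap. Means were 22.9 ± 3.64 CPM in nucleotide pools and 14.9 ± 3.35 CPM in control pools (SD, n = 3 each). The log2 fold change was 0.62 ± 0.186 (SE), with a 95% interval of 0.19 to 1.05, and did not pass without the block (edgeR adjusted p = 0.194). In DESeq2 the adjusted p was 0.0655. With the replicate block it rose by 0.63 ± 0.0919 on the log2 scale (SE, edgeR adjusted p = 0.000943).

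myh6 (386711) encodes the myosin heavy chain of the atrium, and its loss gives the weak atrium mutant of zebrafish. Its levels were 12.9, 11.9 and 12.8 CPM in the nucleotide libraries, against 12.3, 11.6 and 12.9 CPM in the control libraries. The groups overlapped, and the highest library of a group was only 1.09 times (nucleotide) and 1.12 times (control) its lowest. The log2 fold change was 0.031 ± 0.115 (SE, edgeR adjusted p = 0.933), with a 95% interval of -0.23 to 0.30 that lies below the fitted change of vmhc. With the replicate block the interval was -0.19 to 0.26. The sign of this small difference turned under library totals, where it was -0.093.

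nppa (321442) encodes a natriuretic peptide of heart muscle. It was at 9.46, 7.61 and 12.5 CPM in the nucleotide libraries, against 8.95, 8.34 and 10.2 CPM in the control libraries. The groups overlapped, with nucleotide library 2 the lowest of all 6 and nucleotide library 3 the highest. The log2 fold change was 0.11 ± 0.197 (SE, edgeR adjusted p = 0.858), and its 95% interval of -0.35 to 0.56 holds the value fitted for myh6 and ends just below that of vmhc. Without nucleotide library 3 it was -0.099, and under library totals -0.026.

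**Figure D2:**
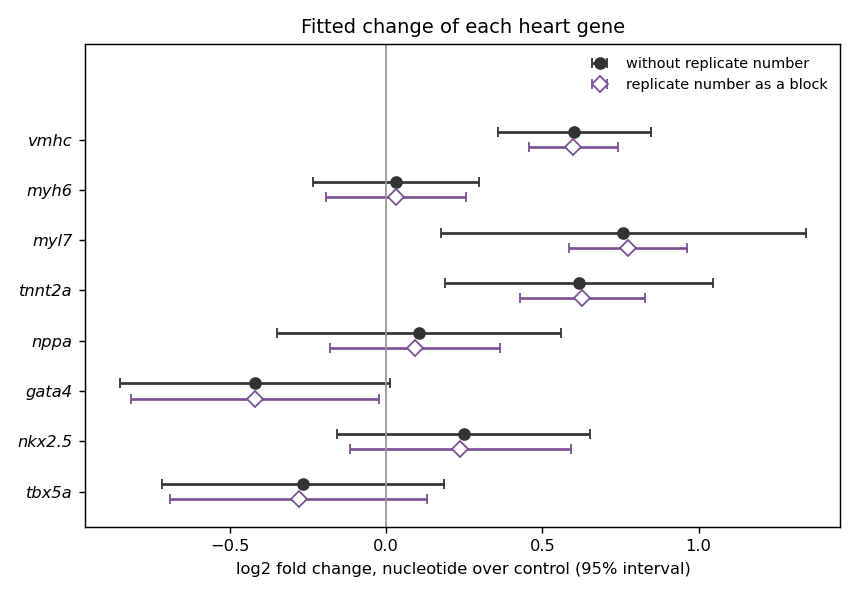
Fitted log2 fold change of each heart gene, nucleotide over control, with its 95% interval, without the replicate number (filled circles) and with it as a block (open diamonds). The point estimates hardly move between the fits, while the intervals of vmhc, myl7 and tnnt2a narrow with the block and stay above 0. With the block the interval of gata4 lies below 0 (-0.82 to -0.023), although its edgeR adjusted p of 0.13 did not pass.

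The transcription factor genes had the lowest counts of the described genes and no call with all 6 libraries. gata4 (30483), for a zinc finger factor needed for heart formation, had 4.29, 4.06 and 3.30 CPM in the nucleotide libraries, against 4.47, 5.18 and 5.93 CPM in the control libraries. All nucleotide libraries lay below all control libraries, as did 9.89% of all tested genes. Its log2 fold change was -0.42 ± 0.188 (SE), with a 95% interval of -0.85 to 0.013 (edgeR adjusted p = 0.359). With the replicate block the interval was -0.82 to -0.023, and the edgeR adjusted p of 0.13 did not pass. The pairs were uneven for this gene. With the block it had -0.60 without pair 1 (edgeR adjusted p = 0.0396) and -0.20 without pair 3 (adjusted p = 0.531). The p of such a fit need not measure the spread between the kept pairs, which limits the call without pair 1.

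nkx2.5 (30696), a homeobox factor gene that is among the earliest markers of the heart field, had 7.54, 6.48 and 5.28 CPM in the nucleotide libraries, against 5.16, 5.23 and 5.85 CPM in the control libraries. The groups overlapped because nucleotide library 3 lay below control library 3. Its log2 fold change was 0.25 ± 0.176 (SE), with a 95% interval of -0.16 to 0.65 (edgeR adjusted p = 0.57). Leaving out nucleotide library 1 gave 0.12, and leaving out nucleotide library 3 gave 0.38. tbx5a (30071), a T-box factor gene acting in heart and pectoral fin, had 2.79, 3.62 and 2.60 CPM in the nucleotide libraries, against 3.66, 3.52 and 3.63 CPM in the control libraries. Nucleotide library 2 sat among the controls and the other two nucleotide libraries below them. The log2 fold change was -0.27 ± 0.195 (SE), with a 95% interval of -0.72 to 0.18 (edgeR adjusted p = 0.585). Leaving out nucleotide library 2 gave -0.42, and leaving out library 3 of that group gave -0.17. The interval of nkx2.5 holds the change fitted for vmhc, and those of gata4 and tbx5a hold a lower level of the same size.

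Same-numbered pools of the groups deviated together across all genes, and the heart sarcomere genes showed this as well. gata4 and nkx2.5 did not, as library 3 was the lowest nucleotide library and the highest control library for both. For tbx5a library 2 was the highest nucleotide library and the lowest control library. In pairs 1, 2 and 3 the log2 ratio of nucleotide over control was 0.48, 0.62 and 0.69 for vmhc. It was 0.91, 0.75 and 0.68 for myl7, and 0.78, 0.56 and 0.55 for tnnt2a. These 3 genes were higher in 3 of 3 pairs, as were 25.7% of all tested genes. For myl7 and tnnt2a the ratios of the pairs lay closer together than the levels of the libraries within either group. myh6 had 0.077, 0.039 and -0.020, and nppa 0.080, -0.13 and 0.29. gata4 was lower in 3 of 3 pairs, as were 27.4% of all tested genes, at -0.060, -0.35 and -0.85. nkx2.5 had 0.55, 0.31 and -0.15 and tbx5a -0.39, 0.040 and -0.48, so the transcription factor genes had no common value across pairs.

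**Figure D3:**
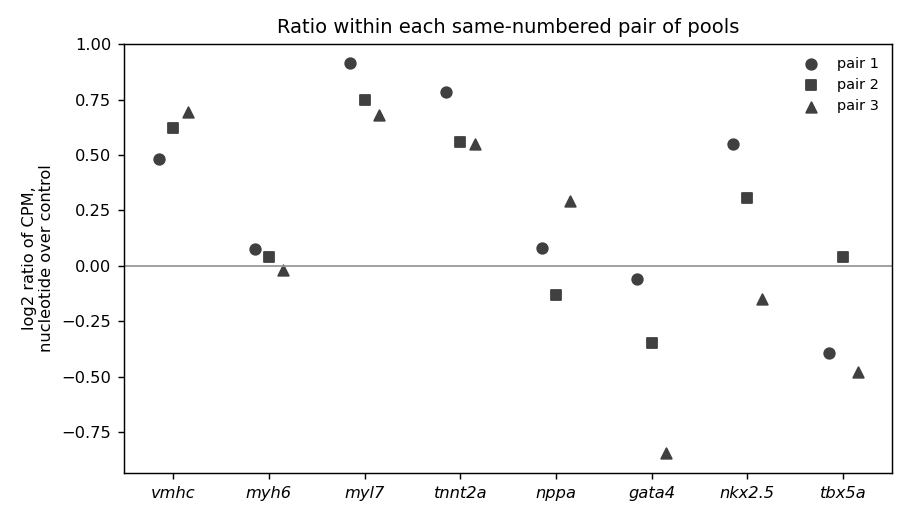
Log2 ratio of CPM, nucleotide over control, within each same-numbered pair of pools for the 8 heart genes, with the pair given by the marker shape. vmhc, myl7 and tnnt2a lie between 0.48 and 0.91 in all 3 pairs, myh6 lies near 0, and gata4 runs between -0.85 and -0.060.

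Whether the ventricular and atrial heavy chain genes differed in their response was read from their ratio within each library, which does not depend on scaling. There were 8.27, 9.46 and 10.3 vmhc counts per myh6 count in the nucleotide libraries, against 6.25, 6.31 and 6.28 in the control libraries. The control ratio was almost the same in the 3 pools (6.28 ± 0.032, mean and SD) and every nucleotide ratio was above it. Counting alone gave a relative error of 6.7% at the lowest myh6 count, wider than this control spread. The narrow control spread is therefore no guide to the variation between pools. The log2 ratio differed by 0.57, with an exact 2-sided permutation p of 0.1, which is the smallest p that 3 against 3 libraries allow. For myl7 per myh6 the ratios were 1.82, 2.02 and 2.83 in the nucleotide libraries, against 1.02, 1.24 and 1.75 in the control libraries. For tnnt2a per myh6 they were 1.57, 1.79 and 2.12 in the nucleotide libraries, against 0.962, 1.25 and 1.43 in the control libraries. Both sets did not overlap (exact permutation p = 0.1 each). Gene length differs between genes, so these ratios compare libraries and not the amounts of the transcripts.

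Ratios among vmhc, myl7 and tnnt2a overlapped between the groups when the libraries were taken without their numbers. vmhc per myl7 was 4.54, 4.68 and 3.64 in the nucleotide libraries, against 6.12, 5.1 and 3.6 in the control libraries (exact permutation p = 0.5). vmhc per tnnt2a was 5.27, 5.28 and 4.86 in the nucleotide libraries, against 6.50, 5.05 and 4.41 in the control libraries (exact permutation p = 0.9). myl7 per tnnt2a was 1.16, 1.13 and 1.34 in the nucleotide libraries, against 1.06, 0.989 and 1.22 in the control libraries (exact permutation p = 0.3). Within pairs, myl7 per tnnt2a was higher in the nucleotide library in 3 of 3, by 0.13, 0.19 and 0.13 on the log2 scale, while vmhc per myl7 was higher in 1 of 3 and vmhc per tnnt2a in 2 of 3. Among the factor genes, nkx2.5 per gata4 was 1.76, 1.59 and 1.6 in the nucleotide libraries, against 1.15, 1.01 and 0.986 in the control libraries. nkx2.5 per tbx5a was 2.7, 1.79 and 2.03 in the nucleotide libraries, against 1.41, 1.49 and 1.61 in the control libraries. Neither factor ratio overlapped between the groups (exact permutation p = 0.1 each), although none of the 3 genes passed singly. In all, 9 ratios were computed, chosen after the levels were seen, and the smallest Benjamini-Hochberg adjusted p was 0.18.

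**Figure D4:**
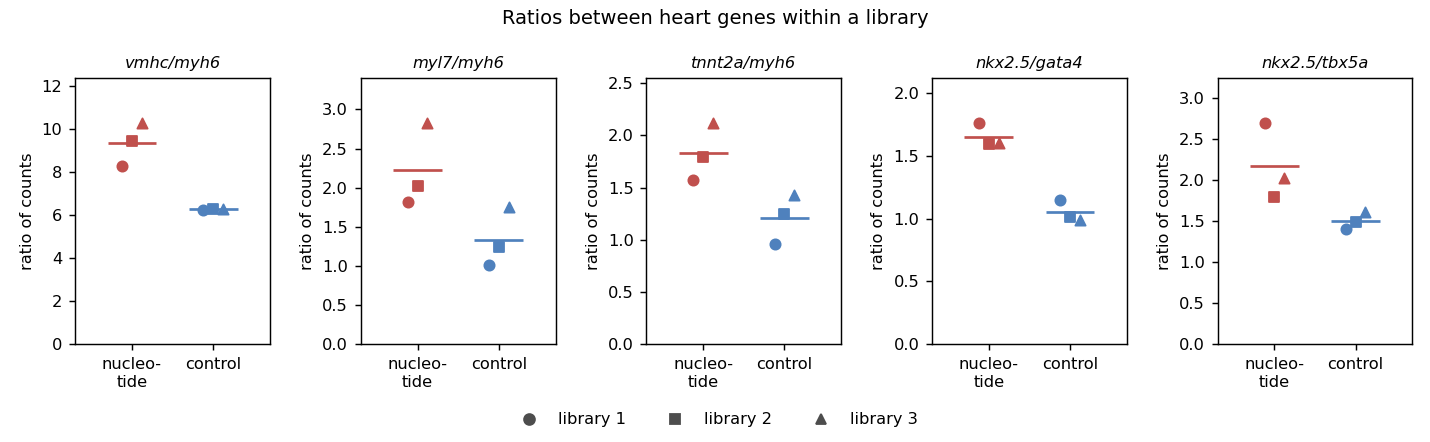
Ratio of counts between heart genes within each library (linear axes from 0), with library number given by the marker shape and the group mean by a horizontal line. The control libraries lie at 6.25 to 6.31 vmhc counts per myh6 count and the nucleotide libraries at 8.27 to 10.3. The control spread is narrower than the counting error of myh6 alone (6.7% at its lowest count).

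The identity of the vmhc reads has a limit. The deposited table lists smyhc3, a slow muscle myosin gene with a row of its own, among the aliases of vmhc. In NCBI RefSeq (assembly GRCz12tu) the gene numbered 30616 is now named myh7, and its neighbour is myh7l, which the table calls vmhcl (768300). vmhcl, for a related heavy chain, was at 55.4, 70.7 and 84.7 CPM in the nucleotide libraries, against 34.4, 42.7 and 53.4 CPM in the control libraries. Its groups did not overlap, and its log2 fold change of 0.69 ± 0.197 (SE) did not pass without the block (edgeR adjusted p = 0.179) but did with it (0.69, adjusted p = 2.39e-05) and in DESeq2 (adjusted p = 0.029). vmhc per vmhcl was 1.93, 1.59 and 1.55 in the nucleotide libraries, against 2.23, 1.71 and 1.52 in the control libraries (exact permutation p = 0.7). The sources used here do not say how reads matching several myosin genes were counted, so the split between these genes is uncertain.

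Of the 17 other heart sarcomere genes tested, 1 rose, 0 fell and 16 did not pass, with a median log2 fold change of 0.12. Without the block 0.937% of all tested genes were called higher and 0.0525% lower, here and for each list below. The rise was actc1a, a cardiac actin gene, at 2.06 ± 0.243 (SE, edgeR adjusted p = 0.00758), and its call was lost without control library 1 (1.96, adjusted p = 0.0668). Actin genes share long stretches of coding sequence, so its value is uncertain in the same way. At an unadjusted p under 0.05, 3 of the 17 were higher and 0 lower, against 8.3% and 6.19% of all tested genes. DESeq2 called 2 higher and 0 lower, where it called 3.05% of genes higher and 0.736% lower. With the block 4 rose and 0 fell, against 10.7% and 8.38% of all tested genes. The added calls were vmhcl, the Xin-repeat gene xirp1 (0.32) and the troponin C gene tnnc1b (0.24, named after its value was seen). Without pair 3 the block no longer called tnnc1b (0.20, adjusted p = 0.078). Other genes of the thick and thin filament gave small values without a call. The cardiac light chain gene cmlc1 had 0.17, the myosin binding protein gene mybpc3 -0.15, and the troponin genes tnni1b and tnnc1a 0.22 and -0.041 (log2 fold changes, named after their values were seen). nexn, for an actin filament protein of the Z disc, had 0.17. Whether the genes of this list are restricted to the heart in these whole animals was not tested.

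Of 11 tested genes for calcium handling and conduction, 0 passed without the block in edgeR, 0 at an unadjusted p under 0.05 and 0 in DESeq2, and their median log2 fold change was 0.11. With the block 3 rose and 0 fell, against 10.7% and 8.38% of all tested genes. The 3 were casq2, for the calcium store protein calsequestrin (0.38), atp2a2b, for a calcium pump of the sarcoplasmic reticulum (0.25), and cx43, for a gap junction protein (0.21). None of these 3 calls held with pair 3 left out of the block, where casq2 had 0.32 (edgeR adjusted p = 0.0583), atp2a2b 0.16 (0.141) and cx43 0.17 (0.105). cx43 also missed without pair 1 (adjusted p = 0.067) or pair 2 (0.152). atp2a2a, for a further calcium pump, had 0.21 and did not pass with all pairs. With the block and without pair 1 it had 0.29 (edgeR adjusted p = 0.014). The kept pairs had log2 ratios of 0.103 and 0.465, a spread that the p of that fit need not measure. These genes are not restricted to the heart.

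Of 22 other heart transcription factor genes tested, 0 passed without the block, and the median log2 fold change was -0.045. At an unadjusted p under 0.05, 1 was higher and 1 lower, against 8.3% and 6.19% of all tested genes. nr2f1a, for a nuclear receptor that maintains atrial identity in zebrafish and is also expressed widely in the nervous system, had 0.57 ± 0.111 (SE, edgeR adjusted p = 0.066). It passed with the block (0.57, adjusted p = 0.000147) and was the 1 gene of this list that DESeq2 called (adjusted p = 0.000555). irx1a fell with the block alone, by 0.33 on the log2 scale (adjusted p = 0.00764). nkx2.7, a close relative of nkx2.5, had a log2 fold change of -0.60 on 19 to 55 counts, and mef2cb 0.12, and neither passed.

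The 7 tested genes of the natriuretic peptide pathway gave 0 calls without the block in edgeR, 0 at an unadjusted p under 0.05, 0 with the block and 0 in DESeq2. Their median log2 fold change was -0.0014, and the receptor gene npr1a had -0.14 and the peptide gene nppcl 0.10. The processing protease genes furina and furinb had -0.21 and -0.13. With the block and all pairs furina did not pass. It had -0.27 without pair 1 (edgeR adjusted p = 0.0481) and -0.27 without pair 2 (adjusted p = 0.0451). Its pairs had log2 ratios of -0.107, -0.103 and -0.443, a spread that those p values need not measure. The 12 tested genes for signals acting on heart muscle likewise gave 0 calls with all 6 libraries in edgeR with or without the block, 0 at an unadjusted p under 0.05 and 0 in DESeq2. Their median was -0.11, with bmp2b at -0.16, nrg2a at -0.20, notch1b at -0.15 and the flow-responsive gene klf2a at -0.68 ± 0.547 (SE). klf2a rested on single libraries: it ran from -1.41 without nucleotide library 3 to -0.25 without nucleotide library 1. With the block and without pair 2 klf2a had -1.31, where the kept pairs had log2 ratios of -2.45 and -0.206. The p of that fit does not measure the spread between these pairs, so no call is read from it. With the block and without pair 1 klf2a had -0.15 (edgeR adjusted p = 0.311).

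**Figure D5:**
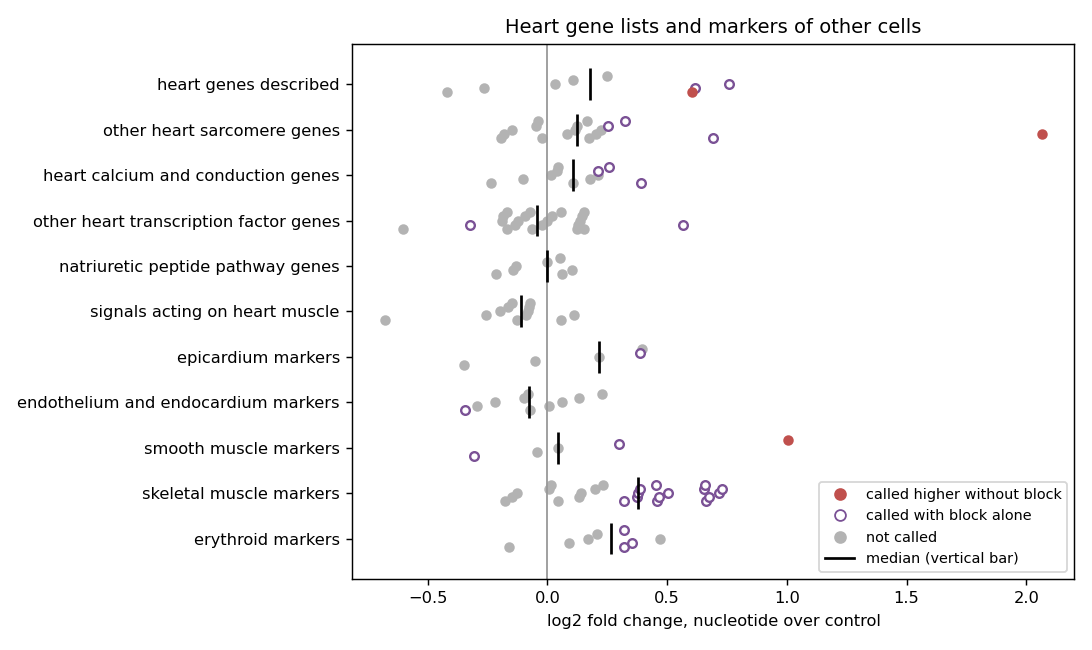
Log2 fold change, nucleotide over control, of every tested gene in the heart gene lists and in the markers of other cell types, 1 point per gene, with the list median as a vertical bar. Filled red points were called higher without the replicate block, and open points were called, higher or lower, only with it. Skeletal muscle markers have a median of 0.38 and the 8 heart genes one of 0.18.

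Most skeletal muscle markers lay higher in the nucleotide pools, as vmhc, myl7 and tnnt2a did. Of 25 listed skeletal muscle markers 24 had a row and were tested. None passed without the block in edgeR. At an unadjusted p under 0.05, 8 were higher and 0 lower, against 8.3% and 6.19% of all tested genes. DESeq2 called 6 higher, against 3.05% of all genes. With the block 14 rose and 0 fell, against 10.7% and 8.38% of all tested genes. The skeletal markers had a median log2 fold change of 0.38. Summed, the skeletal markers stood at 49020, 49080 and 80150 CPM in the nucleotide libraries, against 43360, 40950 and 49660 CPM in the control libraries. The 8 heart genes summed to 187.9, 191.3 and 231.2 CPM in the nucleotide libraries, against 135.5, 135.6 and 161 CPM in the control libraries. Library 3 was the highest of its group in both sums. The slow myosin gene smyhc1 had a log2 fold change of 0.73 and the fast myosin genes myhz2 and myhz1.1 0.72 and 0.67, with actn3b at 0.46. With the block these genes passed (edgeR adjusted p = 0.000375 for smyhc1, 0.00122 for myhz2, 0.00443 for myhz1.1 and 0.00599 for actn3b). They had the smallest p of the list, where 21 of the 24 markers had a positive log2 fold change. tnnc2 and myod1 stood near 0, at 0.015 and 0.0082. mybpc1, myog and mybpc2b lay lower, at -0.15, -0.18 and -0.13 (all 3 and the former pair named after their values were seen). Without nucleotide library 3 the value of myhz1.1 was 0.43, and with the block and without pair 3 it was 0.42 (edgeR adjusted p = 0.000432). The part of skeletal muscle in the heart gene values was not tested.

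Of 5 tested smooth muscle markers 1 rose, the actin gene acta2, at 1.01 ± 0.130 (SE, edgeR adjusted p = 0.0123; 0.071 without control library 1 and 0.0594 without control library 3), while tagln, myh11a and desmb had -0.31, 0.30 and 0.045. With the block 2 rose and 1 fell, against 10.7% and 8.38% of all tested genes. acta2 (1.01) and myh11a (0.30, edgeR adjusted p = 0.00571) rose, and tagln fell (-0.31, adjusted p = 0.00599). The smooth muscle sum was 303, 374.3 and 345.4 CPM in the nucleotide libraries, against 234.1, 287.1 and 273.9 CPM in the control libraries. Of 10 tested endothelium and endocardium markers 0 passed without the block in edgeR, 0 at an unadjusted p under 0.05 and 0 in DESeq2. With the block 1 fell, tek (-0.34, named after its value was seen; -0.20 and adjusted p = 0.176 without pair 3), and esama, sox7, nfatc1 and cdh5 had -0.22, 0.23, -0.29 and 0.13. They summed to 346.4, 354.6 and 379.1 CPM in the nucleotide libraries, against 358.3, 368.4 and 407.2 CPM in the control libraries. These endothelial sums overlapped between the groups and were lower in the nucleotide library of 3 of 3 pairs. The sums of the 8 heart genes and of the smooth muscle markers did not overlap, and those of the skeletal markers did. Every nucleotide library lay above every control for 3 of 8 heart genes, 1 of 5 smooth muscle and 8 of 24 skeletal markers. Every nucleotide library lay below every control for 1 gene in each of these 3 lists. Of all tested genes, 11.5% lay wholly above and 9.89% wholly below. acta2 alone gave 130 of the mean of 341 CPM of the smooth muscle markers in nucleotide pools, and 64.6 of 265 CPM in control pools. vmhc alone gave 117 of the mean of 203 CPM of the 8 heart genes in nucleotide pools, and 77.0 of 144 CPM in control pools. The differences in the heart and smooth muscle sums thus lean on a single gene each, and the sums do not speak for their lists.

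Of the 5 epicardium markers 0 passed without the block. At an unadjusted p under 0.05, 1 was higher, aldh1a2, against 8.3% of all tested genes. DESeq2 also called aldh1a2 (adjusted p = 0.0466), and it rose by 0.38 with the block. tbx18, tcf21 and wt1b had -0.35, 0.39 and 0.22. The epicardium sum was 59.24, 61.05 and 62.21 CPM in the nucleotide libraries, against 52.87, 50.47 and 54.93 CPM in the control libraries, without overlap. aldh1a2 alone gave 39.5 of the mean of 60.8 CPM in nucleotide pools, and 30.3 of 52.8 CPM in control pools. The sum thus follows this gene and does not speak for the list, where 3 of the 5 markers had a positive log2 fold change. Of 8 tested erythroid markers 0 passed without the block in edgeR, 0 at an unadjusted p under 0.05 and 0 in DESeq2. With the block 3 rose and 0 fell, against 10.7% and 8.38% of all tested genes. The 3 were hbae3, hbae1 and hbbe2. hbae3, picked with its result already known, had 0.29 with the block (edgeR adjusted p = 0.0149). hbae1 and hbbe2 were no longer called with the block and without pair 3 (adjusted p = 0.365 and 0.23). Fits without a pair are not given here for hbae3. The erythroid sum was 115.5, 121.5 and 230.5 CPM in the nucleotide libraries, against 105.9, 109 and 169 CPM in the control libraries, with overlap, and ba1, an adult beta globin gene named after its values were seen, was at 0 in all 6. The globin genes hbbe2, hbae1 and hbbe1.1 had 0.32, 0.35 and 0.47, and epb41b 0.17. The part of these cells in the heart gene values was not tested.

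Over the 6 libraries, the genes whose log2 CPM followed the mean of the sarcomere members most closely were not heart genes by name. Among 13312 genes compared with the mean standardised level of vmhc, myl7, myh6 and tnnt2a, the highest Pearson r belonged to tmsb4x, for the actin-binding peptide thymosin beta 4 (0.995), crfb12, for a cytokine receptor (0.994), prkcsh (0.993), zgc:173624 (0.993) and kctd5a (0.990). For the mean of gata4, nkx2.5 and tbx5a they were arsk (0.988), zgc:110197 (0.976), tmem56b (0.974), nme5 (0.973) and vwf (0.973). With 6 libraries in 2 groups and so many genes compared, values this high describe these libraries alone. An r over 0.9 was held by 401 genes with the sarcomere mean and by 64 with the factor mean. Each mean weighs its genes equally and joins genes with unlike log2 fold changes. These were 0.031 for myh6 beside 0.60 for vmhc, and 0.25 for nkx2.5 beside -0.42 for gata4 and -0.27 for tbx5a. Neither mean therefore speaks for each of its genes.

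The authors' deposited table lists log2 fold changes that are closer to 0 than those above for each of the 8 heart genes. The submitters' notes name DESeq2 and the headers a Wald score, but the settings of that fit are not described in the sources used here. In this deposited table vmhc has 0.53 with an adjusted p of 0.000201. The same deposited table gives myl7 0.49 (adjusted p = 0.0682), tnnt2a 0.46 (0.0613) and gata4 -0.29 (0.416), and adjusted p values of 0.681 to 0.959 for nkx2.5, tbx5a, nppa and myh6. In the authors' deposited table vmhcl has 0.51 with an adjusted p of 0.0273.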

How the data were processed

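RNA from 6 pools of whole embryos was measured. The authors deposited 1 table of raw counts, whole reads per gene for each library. Beside the counts, the authors deposited a mean normalised signal per gene, a log2 fold change, its standard error, a Wald score, the p-value and an adjusted p-value, per the file headers. Per the submitters' processing notes, the tools were TopHat2, HTSeq and DESeq2 and the build GRCz10; annotation, strand setting and the counting of multiply matching reads are not given there or in the labels. Columns were assigned to samples by library name. Of 14681 rows, 69 were exact repeats of another row's symbol and counts and were left out, giving 14612 genes.

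Counts were tested with edgeR 4.0.16 in R 4.3.3: filterByExpr (minimum count 10, minimum total 15), TMM scaling, the quasi-likelihood F test (2-sided) of group and Benjamini-Hochberg adjustment over 13336 genes, with a threshold of 0.05. SE is the log2 fold change over the square root of F, and 95% intervals use the t distribution. The steps were tested on simulated counts drawn with no replicate effect. That test does not speak of fits where same-numbered pools deviate together. Alternatives were a replicate block, DESeq2 1.42.0, other scalings, no filter and leaving out single libraries or pairs.

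The groups share the numbers 1 to 3, whose meaning the labels do not give. The library names end in EM2, EM3 and EM9 for control libraries 1, 2 and 3. Those of nucleotide libraries 1, 2 and 3 end in NT1, NT3 and NT9. The last digit is thus shared in pairs 2 and 3 but not in pair 1, and its meaning is not stated either. Deviations of log2 CPM (prior count 2) from group means correlated at 0.546, 0.625 and 0.617 between same-numbered libraries, each above a set level of 0.1. Between libraries of unlike number they correlated at -0.403 to -0.232. With 3 libraries per group some matching always fits best, so these values do not establish that the pools were paired. The library totals also took the same order in both groups, library 2 lowest and library 3 highest, and their part was not tested. Calls made only with the block rest on this matching. The test of group and the exact permutation tests leave the number out. Values with the replicate block stand beside each call of the heart genes that it changes, and beside many but not all such calls in the other lists. Whether pools came from separate clutches is not in the labels, and the p-values speak only of variation among these pools, which may be technical.

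The genes and lists were chosen with earlier results of these data known. All listed heart genes are named, up to 4 genes of each other list with the smallest p, and 5 genes of like pattern (mean of at least 10 counts) for the sarcomere and for the factor genes; a gene named outside this rule is marked as such. List symbols with no row were matched through the NCBI gene number.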

Additional observations from a re-analysis of the deposited data

How the results depend on the processing

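Over all tested genes 132 were called (125 higher, 7 lower), against 2550 with the replicate block, 494 in DESeq2, 39 to 80 with a single library left out, and 1673, 2012 and 2135 with the block and pair 3, 2 or 1 left out. Library totals gave 86 higher and 18 lower and moved the median log2 fold change of tested genes to -0.138 (-0.014 with TMM). Of the 8 heart genes, 1 was called without the replicate block and 3 with it. The call of vmhc was lost under upper-quartile scaling and library totals (0 called each) and with any single library left out, a setting with fewer samples. Over all left-out libraries and pairs, 0 to 4 heart genes were called, the 4 being the block without pair 1. vmhc, myl7 and tnnt2a passed in all 4 fits with the block, and with all 6 libraries the block changed no other call among the 8 genes. Fits with the block and a pair left out rest on few libraries. Their edgeR adjusted p varied widely with the pair left out, for acta2 2.61e-27, 1.01e-21 and 2.64e-05 without pair 1, 2 and 3. These p values need not measure the spread between the kept pairs, and every call from such a fit has this limit. Signs turned for small values. They also turned without nucleotide library 3 for the globin genes hbbe1.1, hbae1 and hbbe2, at 0.47, 0.35 and 0.32 with all libraries. Under library totals myh6 had -0.093, nppa -0.026, nppcl -0.025, ankrd1b -0.025 and desmb -0.078. With single libraries left out, the values of ankrd1b ran from -0.36 to 0.60, of desmb from -0.00024 to 0.14, of hbae1 from -0.069 to 0.57, of hbbe1.1 from -0.28 to 0.74, of hbbe2 from -0.028 to 0.56, of myh6 from -0.0087 to 0.073 and of nppa from -0.099 to 0.26. With the block and without pair 3, nppa had -0.021 and hbbe1.1 -0.23, and without pair 1 desmb had -0.0065. The cause of these shifts was not tested. Depth limits gata4, nkx2.5, tbx5a and nppa most, with 68 to 360 counts per library.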

Other observations

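Some genes of the heart lists varied more between pools than between the groups. Both genes given here were singled out after their values were seen. ankrd1b, for a stretch-responsive ankyrin repeat protein of muscle, had 2982, 1374 and 4972 counts in nucleotide libraries 1, 2 and 3, against 2299, 927 and 3839 counts in control libraries 1, 2 and 3. Its order over the library numbers was the same in both groups, and its log2 fold change of 0.12 ± 0.483 (SE) did not pass (edgeR adjusted p = 0.941). klf2a, a transcription factor gene that responds to blood flow, had 1359, 3165 and 7559 counts in the nucleotide libraries, against 6093, 2638 and 7248 counts in the control libraries. Only pair 1 stood apart for klf2a, at a log2 ratio of -2.45, against -0.102 and -0.206 in the other pairs.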
